A study of Homo sapiens with 7 samples.

Results

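The 8 genes described here encode the subunits of TRiC, the chaperonin of the eukaryotic cytosol, and were chosen by name: TCP1 (subunit alpha), CCT2 (beta), CCT3 (gamma), CCT4 (delta), CCT5 (epsilon), CCT6A (zeta), CCT7 (eta) and CCT8 (theta). They are 8 of the 20037 protein-coding genes in the RefSeq table used here. Of the 47016 Myc peaks on the nuclear chromosomes, 25 had their summit inside one of these genes or within 20 kb of it. Myc binding had been mapped by CUT&RUN, in which an antibody directs a nuclease to the bound DNA and the freed fragments are sequenced, in HT29, an established line of human colon cancer cells. All 7 libraries came from cells held for 6 h in serum-free medium with oleic acid, and by their titles 3 were made for Myc, 3 with IgG and 1 was an input. The antibody label of the IgG libraries names the Myc antibody too, and the titles were followed. The deposited list gives 1 value per peak and none per library, so no spread between replicates exists for any value below, and no group without oleic acid was analysed here.

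TRiC is an ATP-driven folding machine of stacked rings, and each ring holds a copy of every subunit. It closes around unfinished proteins, with actin and the tubulins as its best-known clients, and receives many of them from prefoldin. The subunits are paralogs whose genes lie on different chromosomes, except that CCT4 and CCT7 are both on chromosome 2. Myc binds DNA together with MAX, with the hexamer CACGTG, the canonical E-box, as its preferred site, and it is known as an activator of genes for cell growth and protein production.

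The sequences below show the DNA under the start peaks of 4 TRiC genes with high folds and of CCT8, which had the lowest, so that the letters can be read beside the values that follow. They are RefSeq sequences of GRCh38.p14, 5′ to 3′, and capitals mark a match to any of 5 hexamers: the canonical E-box CACGTG and the related forms CACGCG, with CATGTG, then CATGCG and also CACGAG, each on either strand. The CCT5 run (chr5:10250349-10250541, plus strand) holds the Myc summit at its base 61 and ends with its match. The CCT3 run (chr1:156338306-156338555, plus strand) lies between the start of CCT3, which is read on the minus strand, and a listed start of TSACC, and ends 30 bases into the latter. The runs of CCT2 (chr12:69585209-69585458, plus strand), CCT7 (chr2:73234058-73234307, plus strand) and CCT8 (chr21:29073649-29073898, minus strand) are the 250 bases before the annotated start.
CCT5: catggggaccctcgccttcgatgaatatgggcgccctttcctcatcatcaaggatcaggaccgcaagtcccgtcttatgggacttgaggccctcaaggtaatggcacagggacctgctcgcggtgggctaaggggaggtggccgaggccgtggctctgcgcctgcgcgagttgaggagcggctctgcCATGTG
CCT3: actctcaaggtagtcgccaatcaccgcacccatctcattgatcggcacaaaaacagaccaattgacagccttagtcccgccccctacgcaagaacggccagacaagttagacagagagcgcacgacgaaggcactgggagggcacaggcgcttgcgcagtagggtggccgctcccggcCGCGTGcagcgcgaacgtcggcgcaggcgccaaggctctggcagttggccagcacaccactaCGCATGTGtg
CCT2: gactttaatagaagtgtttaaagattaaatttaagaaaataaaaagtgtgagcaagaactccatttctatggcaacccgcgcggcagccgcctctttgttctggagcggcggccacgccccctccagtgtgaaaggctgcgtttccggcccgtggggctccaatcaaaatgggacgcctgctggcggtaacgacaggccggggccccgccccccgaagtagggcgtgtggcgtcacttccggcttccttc
CCT7: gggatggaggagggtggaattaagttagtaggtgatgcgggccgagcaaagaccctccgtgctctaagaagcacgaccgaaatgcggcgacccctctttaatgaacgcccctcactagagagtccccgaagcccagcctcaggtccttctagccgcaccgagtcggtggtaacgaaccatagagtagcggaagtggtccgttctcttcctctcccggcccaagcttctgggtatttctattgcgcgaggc
CCT8: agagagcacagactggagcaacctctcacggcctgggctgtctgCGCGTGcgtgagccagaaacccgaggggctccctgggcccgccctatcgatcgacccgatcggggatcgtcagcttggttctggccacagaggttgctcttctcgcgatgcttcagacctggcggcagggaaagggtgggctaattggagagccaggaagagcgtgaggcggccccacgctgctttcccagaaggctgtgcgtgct

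All 8 TRiC genes had a Myc summit within 1 kb of a transcription start, as did 58.2% of all protein-coding genes. A start was the 5′ annotated end or any start in the RefSeq promoter table, and both annotated ends where the tables gave no strand, which was so for CCT6A alone among the 8. The strength of a peak is the authors' fold enrichment, the ratio of the Myc pileup to the local control level at the summit. The strongest start summit of the 8 genes had a median fold of 15, against 7.92 over the 11669 genes with a start summit. Of the 8 genes, 7 stood above that median, and CCT8 alone below it. These counts are a description of genes chosen by name, without a test.

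The strongest start summit was that of CCT5, at chr5:10250409, 488 bp inside the 5′ annotated end of the gene (10249921 to 10266412) and 128 bp before a start that the promoter table lists at 10250537. Its fold was 31.5 (Poisson 95% interval 27.6 to 35.7), from a pileup of 235 fragments over a control level of 6.50, and it ranked 28 among the 11669 genes. CCT3 (chromosome 1, 156308968 to 156338292) followed at 25.5 (22.5 to 28.8), with its summit 373 bp before the start, a pileup of 258 and the highest control level of the 8, 9.17. The intervals of CCT5 and CCT3 overlapped, and the difference between these genes was not tested. CCT2 (chromosome 12, 69585459 to 69601570) had 20.2 (17.0 to 23.8), from 138 fragments over 5.89, with the summit 153 bp after the start. It ranked 349, and CCT3 ranked 117.

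The next 4 genes formed a group whose intervals all overlapped each other. CCT7 (chromosome 2, 73234308 to 73253005) had a fold of 15.7 (12.9 to 18.9), with the summit 120 bp after its start. CCT6A (chromosome 7, 56051765 to 56063989) had 14.4 (12.0 to 17.0), with the summit 174 bp inside its lower-coordinate end. CCT4 (chromosome 2, 61868085 to 61888671) had 13.4 (11.0 to 16.2), 188 bp inside its 5′ end, and TCP1 (chromosome 6, 159778498 to 159789602) had 12.0 (9.67 to 14.7), 478 bp before its start. Between 79.6% and 91.4% of the genes with a start summit had a lower fold than these 4. The intervals of CCT7 and CCT6A also overlapped that of CCT2, and those of CCT4 and TCP1 did not.

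CCT8 had the lowest fold of the 8. At this gene (chromosome 21, 29056326 to 29073648) the summit lay 361 bp inside the start, with a fold of 7.36 (5.50 to 9.66) from 50 fragments over a control level of 5.93. Of the genes with a start summit, 44.2% had a lower fold. Its interval reached just short of that of TCP1 and overlapped none of the other 7. Across the 8 genes the highest fold was 4.27 times the lowest, and 18 of the 28 pairs had intervals that did not overlap. The same share for pairs of all genes with a start summit was not computed, so this spread cannot be called unusual. Control levels ranged from 5.89 to 9.17 and pileups from 50 to 258, so the pileups spread more widely than the control levels. The intervals cover counting error only, with the fragments taken as independent. Amplified fragments without molecular identifiers are not independent molecules, and the handling of duplicates is not stated. The intervals may therefore be too narrow even for counting error.

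**Figure D1:**
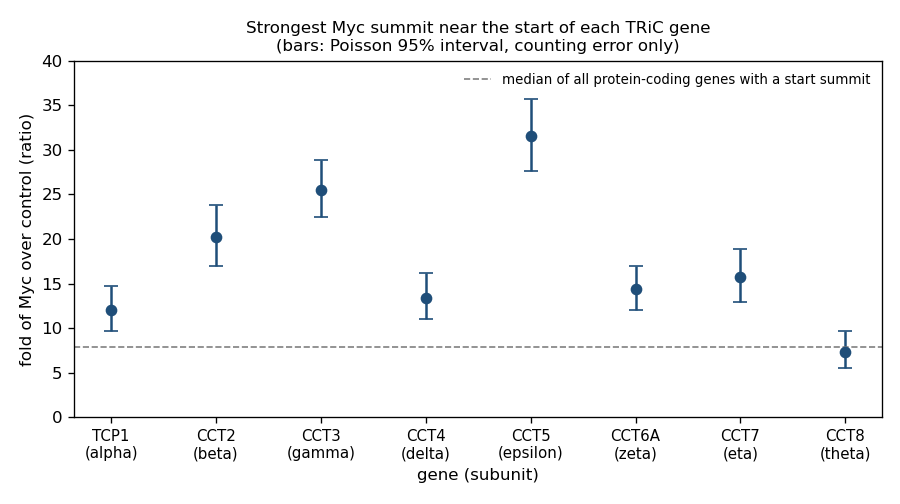
Fold of the strongest Myc summit near the start of each TRiC gene (vertical axis, ratio to control) by gene and subunit (horizontal axis), with bars for the Poisson 95% interval and a dashed line at the median of all genes with a start summit, 7.92. CCT5 is highest at 31.5, and CCT8 at 7.36 is the point whose interval takes in the dashed line.

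**Figure D2:**
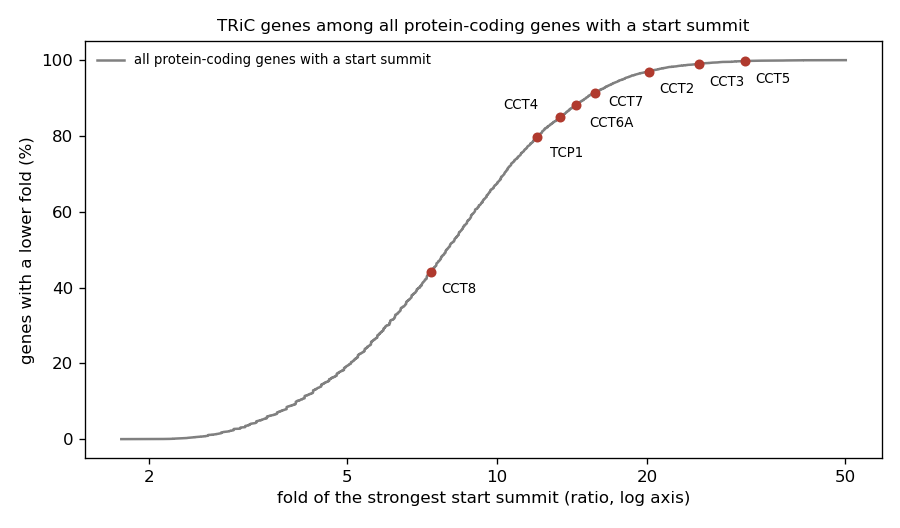
Share of protein-coding genes with a start summit that have a lower fold (vertical axis, percent) against the fold (horizontal axis, log scale), with the TRiC genes as points on the curve of all 11669 genes. CCT8 sits at 44.2% and the others between 79.6% and 99.8%.

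The start peaks of the TRiC genes were mostly broad as well as strong. Their median width was 2560 bp, against 1540 bp for the start peaks of all genes and 688 bp for all peaks. Of the 8 peaks, 5 were wider than 2 kb, those of TCP1 (3099 bp), CCT5 (2804 bp), CCT4 (2753 bp), CCT7 (2747 bp) and CCT6A (2379 bp), as were 30.0% of the start peaks of all genes. Each of these 5 peaks also covered an annotated end of another coding gene: MRPL18, ATPSCKMT, COMMD1, PRADC1 and PSPH, in that order. The share of start peaks of all genes, wide or narrow, that cover such an end was not computed. The count is therefore no sign of a trait of these genes, and a link to width was not tested. The peaks of CCT8 (1515 bp), CCT3 (1313 bp) and CCT2 (1160 bp) were narrower, so the folds next to the highest, those of CCT3 and CCT2, belonged to the narrowest peaks. Of these narrower peaks, that of CCT3 covered listed starts of TSACC, and those of CCT8 and CCT2 covered no end of another coding gene. Without peaks wider than 2 kb, 4 of the 8 genes still had a start summit, against 42.4% of all genes. These were CCT2, CCT3, CCT8 and CCT6A, the last through the peak at its other end.

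The count of 8 held at a shorter distance, within which TCP1 fell narrowly (478 bp), and could not fall at longer ones. It was 8 within 500 bp (51.5% of all genes), within 2 kb (61.9%) and within 5 kb (66.2%). It was also 8 with a −log10 q of at least 10 (50.3%), with 1 summit kept per peak interval (58.2%), and when either annotated end was taken for every gene (56.4%). Among the genes whose strand the tables give, all 7 TRiC genes had one, against 61.3%.

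Of the 8 genes, 5 shared their start region with another gene, so that a summit there cannot be given to the TRiC gene alone. A different coding gene began or ended at most 1 kb from the 5′ end of TCP1, CCT3, CCT4, CCT5 and CCT6A (from either end for CCT6A), as was so for 20.7% of all protein-coding genes. In the whole table, genes with such a neighbour had a start summit in 81.0% of cases and a median fold of 9.27, and genes without one in 52.3% and 7.43. The 3 TRiC genes without such a neighbour, CCT2, CCT7 and CCT8, had folds of 20.2, 15.7 and 7.36.

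At TCP1 the neighbour is MRPL18, which encodes a protein of the mitochondrial ribosome and is read away from TCP1 from 210 bp beyond its start. The Myc summit lay on the MRPL18 side, 268 bp inside that gene. At CCT4 the neighbour is COMMD1, a gene of copper and membrane protein traffic, whose annotated span overlaps CCT4 by 281 bp, and the summit lay within this overlap. At CCT3 it is TSACC, named for a protein that works with testis-specific kinases. Its span overlaps CCT3 by 979 bp, and the Myc summit fell inside TSACC, 139 bp and 237 bp from a pair of its listed starts. At CCT5 the end of ATPSCKMT, a mitochondrial lysine methyltransferase gene, lay 33 bp from the 5′ end of CCT5, and the summit lay on the CCT5 side. At CCT6A the end of PSPH, the gene of the last enzyme of serine synthesis, lay 321 bp below the lower end of CCT6A. PRADC1 lay 1024 bp from the start of CCT7, just outside the limit.

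Within the TRiC genes Myc was found at the ends and not in between. None of the 8 genes, which span 11.1 to 29.3 kb, had a summit in its body over 1 kb from its ends and listed starts, against 29.3% of the 4913 protein-coding genes in that length range. A summit within 1 kb of the 3′ annotated end was listed for 2 of the 7 TRiC genes with a known strand, against 8.34% of such genes. Both of these were weak: at CCT5 a fold of 2.69 (1.60 to 4.26) from 16 fragments, 215 bp inside the 3′ end, and at CCT3 a fold of 2.63 (1.54 to 4.22) from 15 fragments, 785 bp beyond it. The smallest pileup anywhere in the list was 14. By fold, these summits of CCT5 and CCT3 exceeded 11.93% and 9.782% of the peaks in the list.

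CCT6A was the exception among the 8 in having strong peaks at both ends. The summit 96 bp beyond its higher end had a fold of 14.3 (11.6 to 17.5), next to 14.4 at the lower end, and their intervals overlapped almost fully. This second summit lay near the start of SUMF2, a gene related to that of the sulfatase-modifying enzyme, 297 bp beyond the end of CCT6A. With 6 peaks within 20 kb CCT6A also had the most of the 8 genes, followed by CCT3 with 5 and CCT5 with 4. CCT2 had its start peak only. The median was 2.5 peaks for the 8 genes and 2 for all protein-coding genes.

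Beside the strongest start peak of each of the 8 genes, 17 peaks were listed within 20 kb, with a median fold of 4.43. They include the peak at the higher end of CCT6A (14.3), which is also near SUMF2 and could be a start peak, since the strand is not given. Of the 17, 7 stood at most 1 kb from where some other coding gene begins or ends. These 7 had a median fold of 14.3 and a range from 3.05 to 22.5. The other 10 had a median of 3.81 and a range from 2.41 to 9.35. The same share and medians were not computed for all peaks in the list. The split is therefore no sign of a trait of the TRiC loci. The strongest of the 17, with a fold of 22.5, lay 16316 bp beyond the 3′ end of TCP1 at the ends of ACAT2 and SOD2, and exceeded the TCP1 start peak. A summit 13251 bp beyond the 3′ end of CCT4, near FAM161A, had 15.6 (12.7 to 18.9). One 19903 bp before CCT7, at SMYD5, had 14.8 (12.0 to 18.0). Beyond the 3′ end of CCT3, the summit at SMG5 and TMEM79 had 7.71 (5.69 to 10.2) and the one at GLMP 3.05 (1.94 to 4.58). Before the start of CCT8, a summit at 3599 bp near an end of MAP3K7CL had 5.03 (3.58 to 6.89), and its interval overlapped that of the CCT8 start peak.

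A pair of peaks of moderate strength lay away from any coding gene end. One was 6492 bp beyond the 3′ end of CCT5, at chr5:10272904, with a fold of 8.17 (6.29 to 10.4). The other was 17326 bp below CCT6A, inside the span of PSPH at chr7:56034439, with 9.35 (7.11 to 12.1). A peak 17138 bp before the start of CCT4 (4.19, 2.83 to 5.99) lay inside COMMD1.

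**Figure D3:**
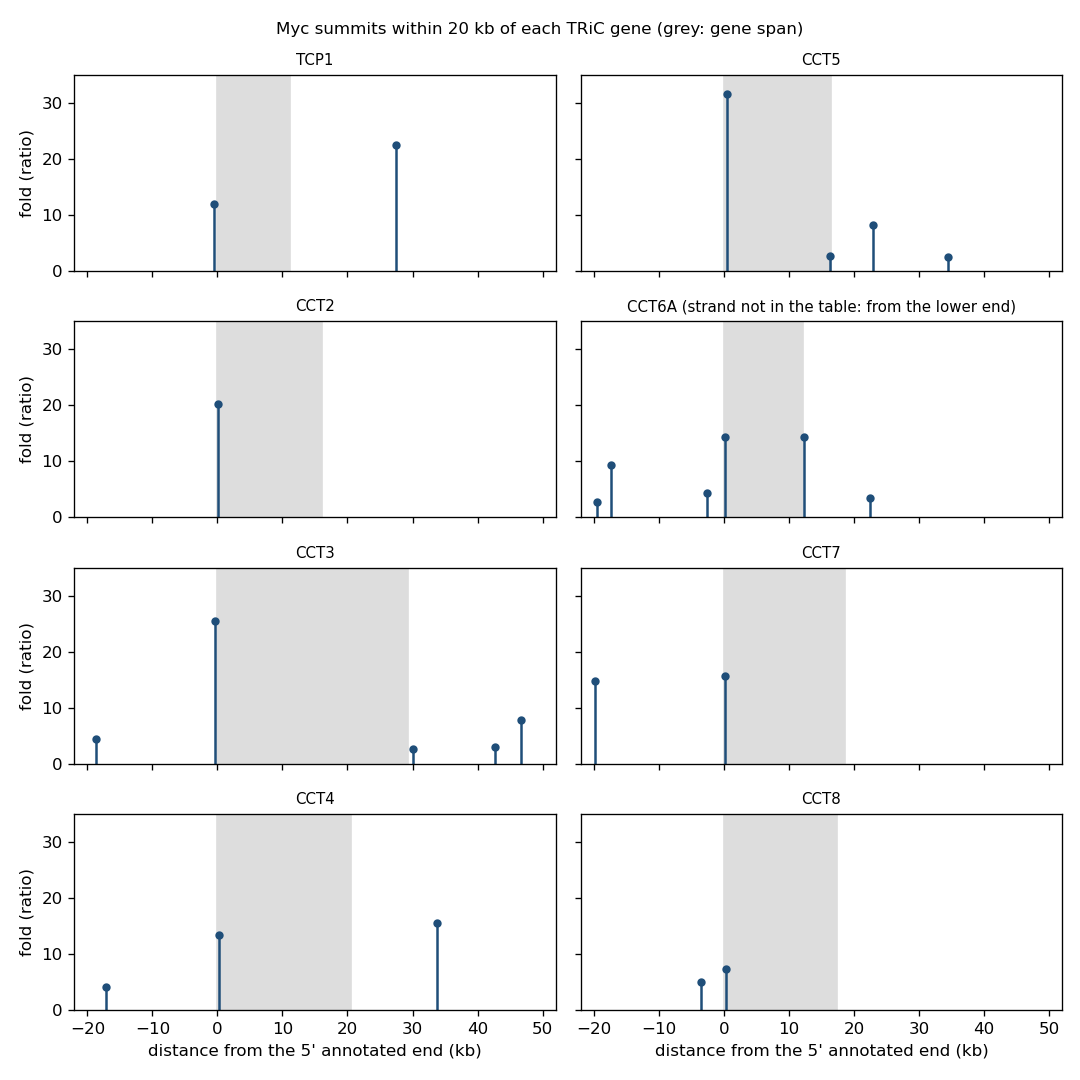
Fold of each Myc summit within 20 kb of a TRiC gene (vertical axes, ratio) by its distance from the 5′ annotated end in the direction of transcription (horizontal axes, kb), with the gene span in grey. CCT6A, whose strand the tables do not give, is drawn from its lower-coordinate end. Each gene has a peak at its start, no summit lies in the grey spans away from the ends, and CCT6A has a pair of like height, 14.4 and 14.3.

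The canonical E-box was not found in the promoter windows that could be searched, which do not cover all TRiC starts. The RefSeq promoter table holds 9 windows of 300 bases, from 250 before to 50 after a start, for 7 of the 8 genes, CCT6A being the one not in it. For CCT5 it holds only the window of the start at 10250537, and none at the annotated 5′ end at 10249921. All 9 windows lay entirely within the start peak of their gene. CACGTG was in none of the 9, against 7.26% of all 35116 windows in the table, 9.46% of the windows of protein-coding genes with a start summit and 13.3% of those whose fold was at least that of TCP1. It was also in none of 8 further windows of MRPL18, TSACC, COMMD1 and PRADC1 that overlap the same peaks. The windows cover only part of each peak, and among the windows of the TRiC genes only that of CCT5 held the summit, while at the other 6 genes it was 27 to 312 bp away. The summits of CCT3 and CCT4 lay inside windows of TSACC and COMMD1. A site elsewhere under a peak would not be seen. With so few windows, and those of CCT4 overlapping each other, an absence of CACGTG is close to what the shares above would give.

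Related hexamers were present at 4 of the 7 genes. CACGCG was in the windows of CCT3 and CCT8, against 11.4% of all windows and 21.1% of those with a fold of at least that of TCP1. CATGTG was in those of CCT5 and CCT2 (11.1% and 7.15%), CATGCG in 1 of CCT2 (7.05% and 10.8%) and CACGAG in both CCT2 windows (6.78% and 10.9%). Any of the 5 forms was found in 5 of the 9 windows, against 35.8% of all windows and 48.7% of those with a fold of at least that of TCP1. TCP1, CCT4 and CCT7 held none of them. CCT8, with a fold below that of TCP1, is outside the set with at least the fold of TCP1. Of the windows of protein-coding genes with a start summit, 17.1% held CACGCG and 41.1% any of the 5 forms.

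The position of the matches differed between the genes. At CCT5 the capitals at the end of the run above lie 127 bp from the summit. At CCT2 the nearest match, CACATG, the reverse complement of CATGTG, was 30 bp from the summit, at the far edge of a window that belongs to a second listed start at 69585889. At CCT3 the match nearest to the summit, at 72 bp, was a CACATG in a TSACC window at chr1:156338737-156338742. The run above shows a CGCGTG 176 bp from that summit and, at its end, the overlapping forms CGCATG and CATGTG at 114 and 112 bp. At CCT8 the matches were 326 and 562 bp from the summit. A match is a description of the letters and does not show a bound site.

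Other promoter elements were searched in the same windows. CGGAAG, the core of ETS factor sites, was in 6 of the 9 windows, at TCP1, CCT2, CCT5, CCT7 and CCT8, against 19.5% of all windows and 35.5% of those with a fold of at least that of TCP1. The GC box GGGCGG was in 6 windows at 5 genes, against 45.0% of all windows and 67.0% of those with a fold of at least that of TCP1. CCAAT, the NF-Y motif, was in 4 windows (34.6% and 37.0%), and TATAAA was in none (11.5% and 4.82%). Of the windows of protein-coding genes with a start summit, 30.8% held CGGAAG, 66.1% GGGCGG and 35.2% CCAAT. The general E-box CANNTG, which takes in CACGTG and CATGTG, was in 4 of the 9 windows, at CCT2, CCT3 and CCT5, against 68.7% and 61.0%. The facing or tail-to-tail repeats that heat shock factors recognise were found as GAANNTTC at TCP1 and CCT2 (6.77% and 5.11%) and as TTCNNGAA at CCT4 (7.74% and 6.23%). TGACGT, a core of CREB and ATF sites, was in both overlapping CCT4 windows at 1 position (7.98% and 11.6%). GC content ranged from 57.7% to 70.0%, and 8 of the 9 windows, the overlapping ones of CCT4 counted separately, were above the median of all windows, 58.7%. GC content was not computed for the windows of genes with a start summit, so this count has no like-for-like comparison.

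The genes around TRiC function also carried Myc at their starts, with lower medians than the subunits. Of 14 genes of prefoldin and TRiC co-chaperones, 13 had a start summit, with a median fold of 9.86. The highest were PDCD5 at 17.9 (15 to 21.2), which encodes a TRiC-binding protein, and PDCL3 at 17.6 (15 to 20.6), a phosducin-like co-chaperone. PDCL2, another phosducin-like gene, had none, with the nearest summit 45997 bp away. All 7 genes of tubulin cofactors, which take folded tubulin on to dimers, had one, with a median of 9.19 and the highest folds at TBCB (19.4) and TBCC (14.0). The folds in these lists were below those of CCT3 and CCT5. Several of their intervals overlapped that of CCT2, among them those of TBCB (16.8 to 22.5), PDCD5, PDCL3 and TBCC (11.3 to 17.2). The interval of TBCB reached the lower bound of CCT3.

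Of 7 chaperonin-like genes, 6 had a start summit, with a median of 12.3. HSPD1 and HSPE1, which encode the mitochondrial chaperonin and its lid and stand head to head, shared a single peak with a fold of 13.3 (10.6 to 16.5). CCT6B, the paralog of CCT6A, had 11.1 (9.07 to 13.4), and its interval overlapped that of CCT6A. The CCT6B summit also lay near an end of ZNF830. CCT8L2, a paralog of CCT8, had none, with the nearest summit 492301 bp away.

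Among 28 genes of TRiC clients, 24 had a start summit and the median fold was 8.13, close to the 7.92 of all genes with one. The highest were MLST8 at 17.5 (14.5 to 21.0), a component of the mTOR complexes, and the deacetylase gene HDAC3 at 15.9 (12.9 to 19.4). ACTG1, TUBB2B and GNB3 had no start summit, although the one nearest to ACTG1 missed the limit narrowly, at 1044 bp. GNB4, also without one, was the remaining gene of the 28. In the proteasome, another large assembly of many subunits, whose list was added after the data were seen, 30 of 31 subunit genes had a start summit. Their median fold was 9.02, led by PSMA5 at 21.3 (17.9 to 25.2) and PSMC3 at 20.8 (18.0 to 23.9), and PSMC1 had none. The interval of CCT3 overlapped those of PSMA5 and PSMC3, and that of CCT5 overlapped neither. The differences between the lists were not tested, and the share of all protein-coding genes with a start summit, 58.2%, applies to each count.

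**Figure D4:**
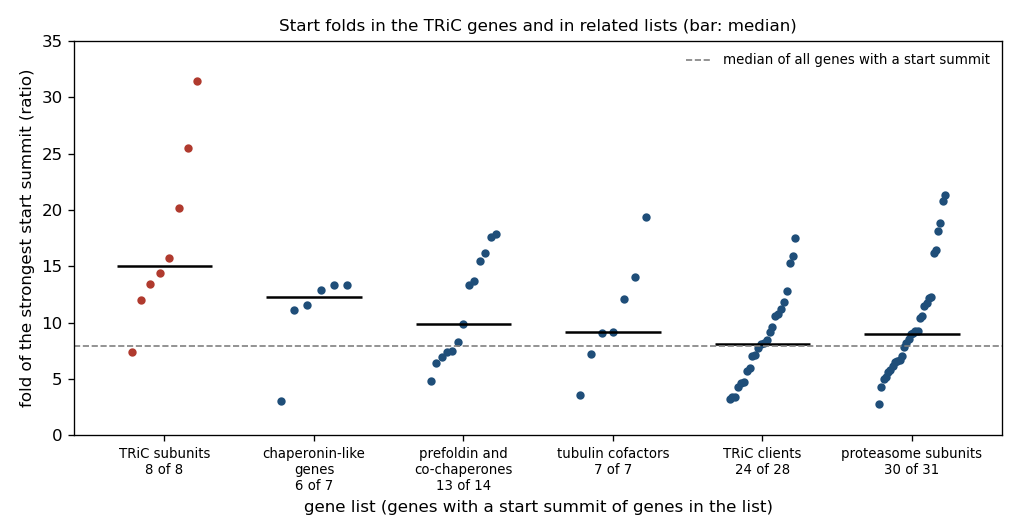
Fold of the strongest start summit (vertical axis, ratio) for each gene that has one in the TRiC subunits and 5 related lists (horizontal axis, with the number of genes that have a start summit of all in the list); bars are medians and the dashed line is the median of all genes, 7.92. The TRiC median is 15, and the medians of the other lists lie between 8.13 and 12.3.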

How the data were processed

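The submitters' processing notes name MACS2 2.1.2, BWA 0.7.15, HOMER 4.11.1, FastQC 0.11.7, Picard 2.19.0, deepTools 3.5.0 and SAMtools 1.5 and build hg38. For settings, for the control behind the peaks, for how replicates were joined and for duplicates, nothing is stated (not given in the sources used here). As deposited by the authors, the data are 1 narrowPeak list with, per peak, the fold enrichment (a ratio), the −log10 p and the −log10 q at the summit, and a score that was not used. The lowest deposited −log10 q was 1.30.

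The pileup behind each fold was solved from the deposited fold, taken as pileup plus 1 over control level plus 1, and from −log10 p as a Poisson tail. All 47016 peaks on nuclear chromosomes gave a whole number within 0.001 of the listed −log10 p. On 1990 simulated peaks 100% of the pileups were recovered. The library depth is unknown, and the intervals are exact Poisson 95% intervals of the pileup at a fixed control level.

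Positions are 1-based. Genes and promoter windows are from RefSeq tables of GRCh38.p14, which has the chromosome sequences of hg38. The promoter table gave a strand for 15842 of the 20037 protein-coding genes. The named genes were all 8 TRiC genes, genes with an end at a start summit, CCT6B, and in each list the 2 highest folds and up to 3 genes without a start summit. GNB4 and the genes named at peaks away from the TRiC starts fall outside this rule and were chosen after their values were seen. Members and lists were chosen with earlier results of these data known, so nothing was tested. Identity between the proteins had been planned, and no protein sequence was used here. Values were computed with Python 3.11.15, numpy 2.4.6, pandas 2.3.3 and scipy 1.17.1.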

Additional observations from a re-analysis of the deposited data

How the results depend on the processing

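The 8 alternatives chose among the same deposited peaks, whose folds do not change. All 59 single-gene start folds they gave stayed within the Poisson interval of the reported value, which was largely fixed in advance. Only at CCT6A, without peaks wider than 2 kb, was another peak taken (14.3 instead of 14.4). The median fold of the genes counted ranged from 15 to 17.2. The count of TRiC genes with a start summit changed only without peaks wider than 2 kb, to 4 from 8, because that setting removes 5 of their start peaks, and to 7 of 7 where genes without a strand were left out, an alternative added after the data were seen. Within 10 kb instead of 20 kb, 14 peaks lay at the 8 genes instead of 25, and 17 had a −log10 q of at least 10. With 500 bp instead of 1 kb, 4 genes instead of 5 had an end of another coding gene near their start. In the 250 bases before the start, 3 genes instead of 4 held an E-box form. There CATGTG was at 1 gene instead of 2, TTCNNGAA at 0 instead of 1, CGGAAG and GGGCGG each at 4 instead of 5 and CANNTG at 2 instead of 3, and the counts of genes with the other 8 motifs did not change. No replicate could be left out, and no paired analysis was possible because the list holds 1 value per peak and none per library.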
